A study of Mus musculus with 12 samples.

Results

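The 48 genes described here encode the machinery that moves newly made proteins into the endoplasmic reticulum (ER) and carries them between the ER and the Golgi. They were taken by symbol from the 54532 genes of the deposited table. By role they are 6 genes of the signal recognition particle and its receptor, 5 of the translocon, 4 of the TRAP complex and 5 of the signal peptidase. The transport side holds 10 COPII genes, 5 cargo receptors, 7 COPI coat genes, 3 ArfGAPs and 3 KDEL receptors. Of the 48 genes, 47 reached 1 FPKM (fragments scaled for gene length and library size) in 3 or more libraries and were tested. Kdelr3, a KDEL receptor, stayed below that level.

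Secretory proteins are recognised while still on the ribosome by the signal recognition particle, handed to its receptor on the ER membrane and threaded through the Sec61 channel, where the signal peptidase removes the signal sequence. COPII coats then bud vesicles from the ER with the cargo chosen by Sec24 and by transmembrane cargo receptors, and COPI coats return escaped ER proteins and receptors from the Golgi. Hepatocytes carry a heavy load of this traffic, because the liver makes most plasma proteins, including the acute phase proteins that are released after injury.

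Poly(A) RNA of whole liver from wild-type C57/BL6J mice was sequenced at 3, 6 and 12 h after removal of 70% of the liver, and after a sham operation, with 3 libraries per group and 12 in all. All groups share the strain and genotype, and the labels give neither age nor sex, nor an hour for the sham livers. Nothing states that each library is its own animal, so the spread behind every p-value may be partly or wholly technical. The remaining lobes grow back after such a resection, and the design follows gene expression over the first hours of that growth.

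Library totals lay between 15573405 and 17199639 counts. Sham replicate 1 stood apart, with correlations across genes of 0.946 and 0.940 with sham replicates 2 and 3, and with 11.9% mitochondrial counts against 5.52% to 8.49% in the other 11 libraries. For 6 h replicate 3 the title says 6 h but the time field 7 h, and the title was followed. Hepatocyte markers summed to 39200 to 44600 FPKM in 6 h livers and 26100 to 27900 FPKM in 12 h livers, against 39500 to 41600 FPKM in sham livers, with 2 of 10 called higher at 6 h and 5 of 10 called lower at 12 h. Tested neutrophil markers were called higher at 6 h for 3 of 4 (8 listed), and the list summed to 9.5 to 20.2 FPKM at 6 h, against 1.63 to 2.19 FPKM in sham livers. Ly6g, a defining neutrophil marker, reached at most 0.156 FPKM at 6 h, and Mmp8 was at 0 in every sham library. Cholangiocyte markers were called higher at 6 h for 3 of 4, and summed to 34.1 to 42.0 FPKM, against 24.7 to 27.6 FPKM in sham livers. B and plasma cell markers summed to 3.87 to 7.98 FPKM at 6 h, against 12.1 to 17.4 FPKM in sham livers, with 1 of 2 called lower. Red blood cell markers summed to 47.9 to 69.2 FPKM in 12 h livers, against 93 to 119 FPKM in sham livers, with 4 of 5 called lower at 12 h, none called at 6 h and 2 called higher at 3 h. Macrophage markers summed to 52.4 to 63.8 FPKM at 12 h, against 62.9 to 88.9 FPKM in sham livers, with 3 of 8 called lower and Marco called higher by 2.76 (log2), and at 6 h 1 was called each way. Endothelial markers were called higher at 3 h for 5 of 9, at sums of 51.1 to 64.8 FPKM against 31.3 to 39.2 FPKM in sham livers, with 2 higher and 1 lower at 6 h and 1 higher and 2 lower at 12 h. Of 9 stellate cell markers, 3 were called higher at 3 h, none at 6 h, and 2 higher and 1 lower at 12 h. The part of these cell types in the results below was not tested.

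The transport genes as a whole were higher at 6 h and stayed high at 12 h. Their summed level was 1447, 1636 and 1542 FPKM in 6 h livers and 1300, 1361 and 1451 FPKM in 12 h livers, against 1050, 1045 and 943.7 FPKM in sham livers. At 3 h the sum was 1141, 1075 and 1167 FPKM. All 6 libraries of 6 and 12 h lay above all sham and 3 h libraries. As a share of all counts the genes took 0.524%, 0.590% and 0.541% at 6 h and 0.598%, 0.612% and 0.655% at 12 h, against 0.451%, 0.460% and 0.408% in sham livers and 0.426%, 0.401% and 0.402% at 3 h. In bulk tissue, more RNA per cell and more cells of a type cannot be told apart.

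At 6 h against sham, 33 of 47 genes were called higher (edgeR quasi-likelihood test, adjusted p under 0.05 over 11451 genes), a share to be read against 16.8% of all tested genes. None was called lower, against 18.2% of all tested genes, and none was lower at an unadjusted p under 0.05 or by DESeq2. Of all tested genes, 2575 were lower at that unadjusted p and 2275 by DESeq2. The median log2 difference was 0.65, against -0.01 over all tested genes. Of the 47 genes, 9 were called higher and rose 2-fold or more, against 826 of all 11451 tested genes. Without sham replicate 1 the count of higher genes was 34, and without 6 h replicate 3 it was 29. Over all tested genes the counts in these fits were 2437 and 1596. With counts scaled by library totals, 23 were called higher and 2, Sec62 and Sar1b, lower, and the median was 0.34, against -0.32 over all tested genes. That scaling called 1048 of all tested genes higher and 3706 lower. In 39 genes all 3 libraries at 6 h lay above all 3 sham libraries, against 23.1% of all tested genes.

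At 12 h against sham, 27 genes were called higher, against a background of 13.5%, and 1, Sar1b, was called lower, against 15.3%. The median log2 difference was 0.50, against -0.02 over all tested genes. Of the 47 genes, 4 were called higher and rose 2-fold or more, against 556 of all 11451 tested genes. In 33 genes all 3 libraries at 12 h lay above all 3 sham libraries, against 19.7% of all tested genes. Without the third 12 h library the count of higher genes fell to 18, and without sham replicate 1 it was 31. Over all 11451 tested genes the count moved from 1547 to 981 and 2597 in these fits.

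At 3 h the module was near its sham level. Only the COPII genes Sec24d and Sec13 were called higher at 3 h, 2 of 47 against a background of 9.81%, and none was called lower by edgeR, against 11.7%. At an unadjusted p under 0.05, 2 were higher and 1 lower, against 1723 and 2122 of all 11451 tested genes. DESeq2 called 3 higher and none lower, against 1377 and 1518. Without sham replicate 1, 3 genes were called higher, and without 6 h replicate 3 as well, 4. Over all tested genes 1274 and 1367 were called higher in these fits. The median log2 difference of 0.07 stood against -0.02 over all tested genes. With counts scaled by library totals that median was -0.11 against -0.20 over all tested genes, and the calls split into 1 higher and 3 lower (Sec62, Sec24b and Arfgap3). That scaling called 782 of all tested genes higher and 2346 lower.

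Between the times, 25 genes were higher at 6 h than at 3 h, against a background of 4.45%, and none was lower, against 4.18%. Without 6 h replicate 3, the library with 7 h in its time field, 19 genes were higher, against 247 of all tested genes. With all libraries, no gene was lower at 6 h than at 3 h at an unadjusted p under 0.05 or by DESeq2, which called 32 higher. Of all tested genes, 1357 were lower at that unadjusted p, and DESeq2 called 712 higher and 828 lower. At 12 h against 6 h, 11 genes were called lower, against a background of 12.6%, and none was called higher, against 12.1%. None was higher there at an unadjusted p under 0.05 or by DESeq2, which called 14 lower. Of all tested genes, 2042 were higher at that unadjusted p, and DESeq2 called 1607 higher and 1665 lower. The count of lower genes was 7 without 6 h replicate 2 or without 12 h replicate 2, against 906 and 950 over all tested genes. The median difference of -0.14 between 12 h and 6 h stood against -0.04 over all tested genes. Scaling by library totals turned it to 0.16, against 0.26 over all tested genes, with 9 genes called higher and 4 lower. Over all tested genes that scaling called 3122 higher and 561 lower. Limma on quantile-normalized values called 2 higher and 6 lower, against 1375 and 1220 of all tested genes. An F-test over the 4 groups called 35 of 47 genes, against a background of 50%.

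**Figure D1:**
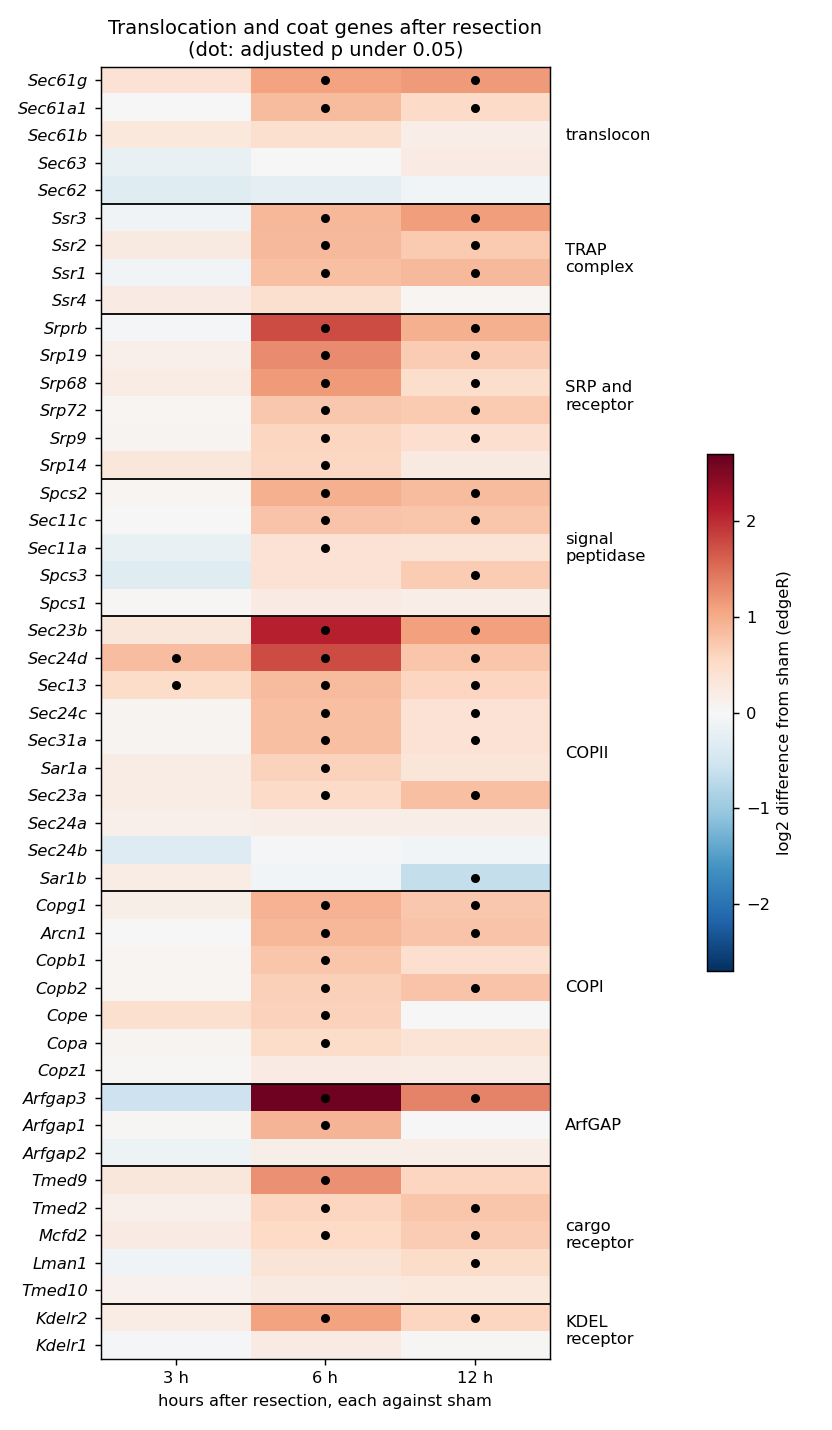
Log2 difference from sham of the 47 tested genes (rows, grouped by role) at 3, 6 and 12 h after resection (columns), with a dot where the edgeR adjusted p was under 0.05. Dots fill 33 rows at 6 h and 28 at 12 h, of which Sar1b alone is lower, but only Sec24d and Sec13 carry one at 3 h.

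The largest rises at 6 h were those of Arfgap3, Sec23b, Srprb and Sec24d. Arfgap3, on chromosome 15 from 83299739 to 83350247 (GRCm38, minus strand), encodes a GTPase activator that switches off Arf1 on COPI coats. It was at 8.70, 11.2 and 8.86 FPKM in 6 h livers, against 1.56, 1.78 and 1.25 FPKM in sham livers. The 6 h values rest on 476, 664 and 462 counts, against 102, 127 and 92 in sham livers. At 3 h it was at 1.03, 0.943 and 1.25 FPKM, and at 12 h at 3.49, 3.35 and 4.78 FPKM. Every 6 h library exceeded every other library, and the 12 h libraries lay between 6 h and sham. The log2 difference from sham was 2.62 ± 0.20 (SE) at 6 h, with an edgeR adjusted p of 9.45e-07, and 1.33 ± 0.19 at 12 h, with an edgeR adjusted p of 0.000323. From 3 h the gain at 6 h was 3.17 ± 0.21 on the log2 scale, the widest of any gene in the module in the 5 comparisons.

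Sec23b, on chromosome 2 from 144556229 to 144590749 (plus strand), encodes one of the interchangeable Sec23 subunits of the inner COPII coat, which activate the GTPase Sar1. Its level was 21.2, 28 and 24.1 FPKM in 6 h livers, against 6.51, 6.39 and 3.90 FPKM in sham livers. It was at 7.28, 6.05 and 8.02 FPKM at 3 h and at 10.6, 11.1 and 14.8 FPKM at 12 h. All 12 h libraries lay above all 3 h and sham libraries and below all 6 h libraries. The rise over sham was 2.10 ± 0.21 (log2) at 6 h, with an edgeR adjusted p of 7.81e-06, and 1.11 ± 0.20 at 12 h.

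Sec24d, on chromosome 3 from 123267455 to 123365641 (plus strand), encodes a Sec24 isoform, the COPII subunit that binds cargo. It was at 29.3, 35.1 and 31.4 FPKM in 6 h livers, against 9.28, 10.6 and 7.72 FPKM in sham livers. It was already called higher at 3 h, at 15.5, 16.1 and 19.5 FPKM, and it was at 15.1, 14.2 and 17.1 FPKM at 12 h. Every library after resection exceeded every sham library. The log2 difference from sham was 0.84 ± 0.15 at 3 h (edgeR adjusted p 0.00141), 1.77 ± 0.15 at 6 h (2.59e-06) and 0.74 ± 0.15 at 12 h (0.00267). At 12 h it was lower than at 6 h by a log2 difference of -1.03 ± 0.15, with an edgeR adjusted p of 0.000331.

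Srprb, on chromosome 9 from 103188032 to 103202137 (minus strand), encodes the membrane-anchored beta subunit of the signal recognition particle receptor. It was at 5.59, 8.84 and 6.41 FPKM in 6 h livers, against 1.8, 2.24 and 1.97 FPKM in sham livers. At 3 h it was at 1.84, 1.87 and 2.32 FPKM, and at 12 h at 3.75, 4.43 and 3.71 FPKM. The 3 h and sham libraries overlapped, while those of 6 and 12 h each formed a range of their own above them. The log2 difference from sham was 1.77 ± 0.19 at 6 h (edgeR adjusted p 1.36e-05) and 0.97 ± 0.19 at 12 h (0.00196). Its exons share 20.7% of their bases with Gm20425, an annotated gene on the same strand that had 0 counts.

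**Figure D2:**
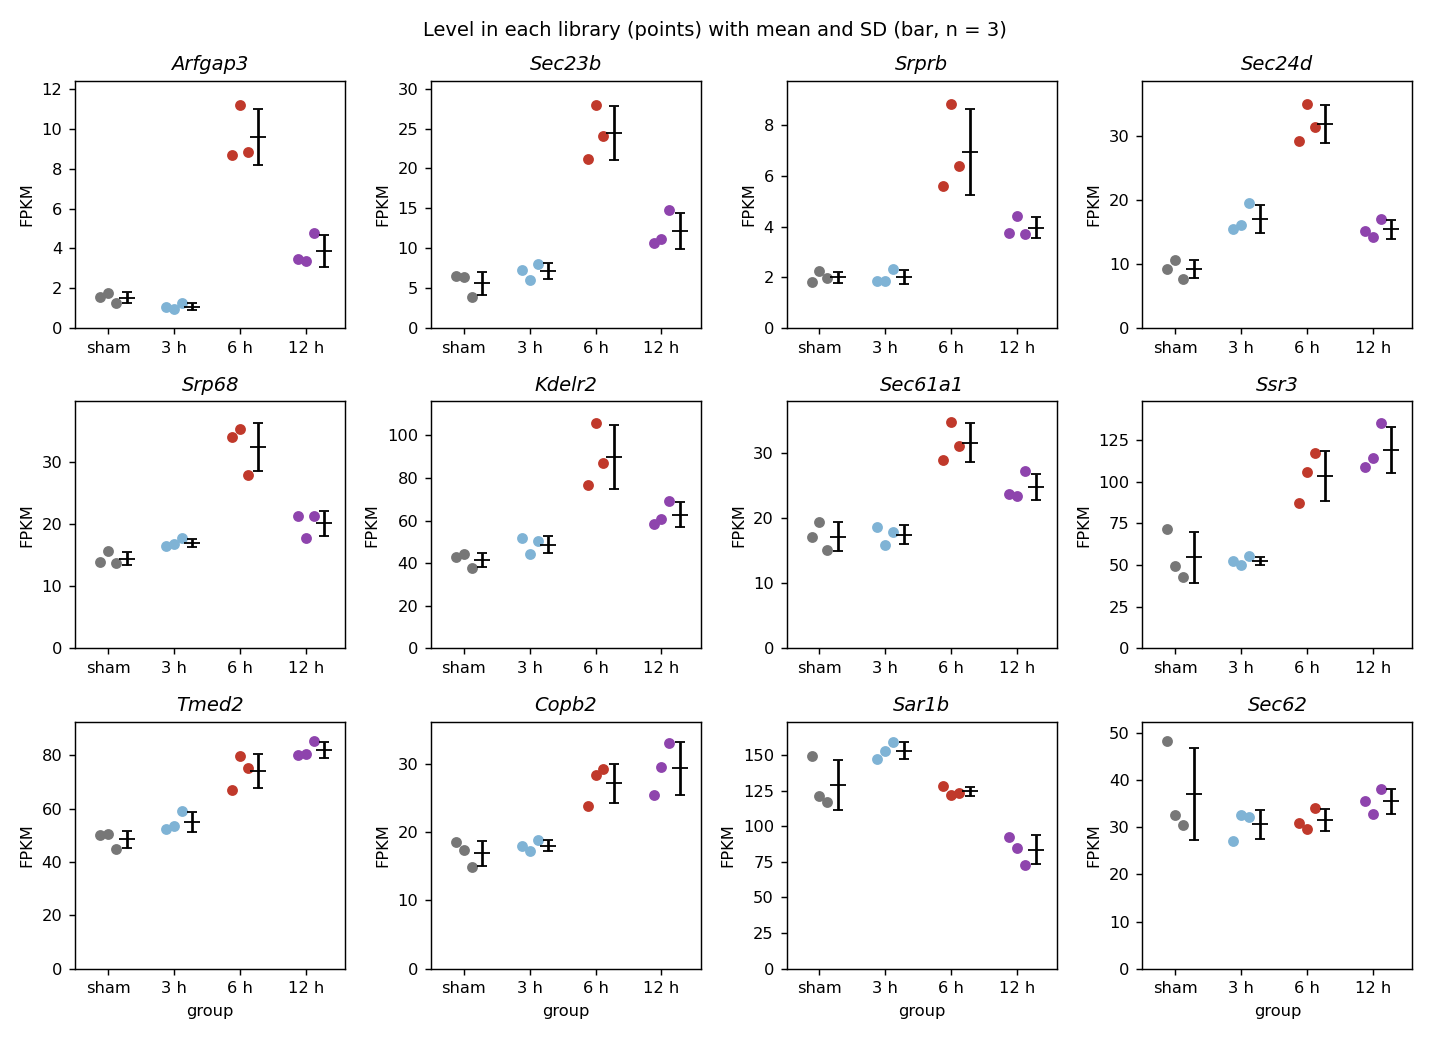
FPKM (y axes, from 0) of 12 transport genes in sham, 3 h, 6 h and 12 h livers (x axes), with a point per library and a bar for the mean ± SD of 3 libraries. Arfgap3, Sec23b, Srprb, Sec24d, Srp68 and Kdelr2 peak at 6 h, Ssr3, Tmed2 and Copb2 have their highest mean at 12 h, and Sar1b is lowest at 12 h.

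The 200 bases around the RefSeq start of these 4 genes are shown because they are the promoters of the largest rises. The sequences are from RefSeq on GRCm38.p6, from 150 bases before the start to 50 after it, 5′ to 3′ on the strand of the gene. Capitals mark CCAAT on either strand (ATTGG where it lies on the other strand) and TGACGTG, the core of the element known to be bound by XBP1 and ATF6 in the unfolded protein response.
Arfgap3 (chr15:83350198-83350397, minus strand): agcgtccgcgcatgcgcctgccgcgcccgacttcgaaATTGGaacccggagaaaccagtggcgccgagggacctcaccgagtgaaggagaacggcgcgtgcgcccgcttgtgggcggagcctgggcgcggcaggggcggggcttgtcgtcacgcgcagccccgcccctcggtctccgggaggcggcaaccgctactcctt
Sec23b (chr2:144556079-144556278, plus strand): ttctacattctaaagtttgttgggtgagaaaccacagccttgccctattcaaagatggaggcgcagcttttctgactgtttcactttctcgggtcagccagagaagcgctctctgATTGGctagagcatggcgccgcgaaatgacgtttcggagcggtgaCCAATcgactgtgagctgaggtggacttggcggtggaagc
Sec24d (chr3:123267346-123267545, plus strand): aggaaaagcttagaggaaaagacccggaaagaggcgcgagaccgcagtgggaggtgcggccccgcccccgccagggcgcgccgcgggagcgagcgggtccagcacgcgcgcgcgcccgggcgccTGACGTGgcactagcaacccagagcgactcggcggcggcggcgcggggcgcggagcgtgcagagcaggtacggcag
Srprb (chr9:103202016-103202215, minus strand): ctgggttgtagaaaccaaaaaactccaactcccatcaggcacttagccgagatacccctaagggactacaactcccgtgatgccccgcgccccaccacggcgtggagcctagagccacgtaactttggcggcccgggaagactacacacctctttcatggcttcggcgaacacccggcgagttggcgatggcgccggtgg

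TGACGTG occurred in 1 of the 4, that of Sec24d. Searched on both strands in windows from 250 bases before to 50 after the start, it lay in 5 of the 41 windows found for 38 of the 48 genes, or 12.2%, against 2.01% of all 32851 windows of the table. Those windows cover 27025 genes, whether expressed in liver or not, and were not matched to the 48 genes in base composition. The shares here and below therefore do not show that a word is particular to these genes. The windows with these letters included those of Copb1, Copb2 and Kdelr3, whose 37 bases around the match are shown for comparison with Sec24d, with TGACGTG or its reverse complement in capitals.
Sec24d (chr3:123267455-123267491, plus strand): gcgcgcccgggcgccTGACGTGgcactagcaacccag
Copb1 (chr7:114254686-114254722, minus strand): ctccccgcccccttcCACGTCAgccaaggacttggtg
Copb2 (chr9:98563710-98563746, plus strand): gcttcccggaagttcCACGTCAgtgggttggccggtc
Kdelr3 (chr15:79516364-79516400, plus strand): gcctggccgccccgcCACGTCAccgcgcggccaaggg

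Of the genes shown with these letters, Sec24d, Copb1 and Copb2 were called higher at 6 h, and Kdelr3 was under the level tested. GACGTG, the last 6 letters of the same word, was in 13 of 41 windows (31.7%), against 6.38% of all windows. CCAAT was in 15 of 41 (36.6%), against 37.4%. The ER stress element, CCAAT followed by any 9 bases and CCACG, was in 0 of 41, against 0.119% of all windows, and ATTGG followed by any base and CCACG was in 0 of 41, against 0.0365%. A match describes letters in these windows and not binding, and the absence of a match covers only the windows searched.

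All 6 genes of the signal recognition particle and receptor were called higher at 6 h, with a median log2 difference of 0.93, and 5 were called higher at 12 h, with a median of 0.58. The 12 h calls of Srp9 and Srp68 were each lost in 5 of 16 alternatives, and that of Srp19 in 1. Beside Srprb, the widest rises were those of Srp19 and Srp68, 2 protein subunits of the particle. Srp19 was at 8.84, 10.8 and 12.3 FPKM in 6 h livers, against 4, 4.61 and 4.35 FPKM in sham livers. It was at 5.13, 3.50 and 5.97 FPKM at 3 h and at 6.93, 6.46 and 7.71 FPKM at 12 h. The 3 h and sham libraries overlapped, and the 12 h libraries lay between those and 6 h. Its rise over sham at 6 h was 1.27 ± 0.19 (log2), with an edgeR adjusted p of 0.000166.

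Srp68, which with Srp72 forms the large protein pair of the particle, was at 33.9, 35.3 and 27.9 FPKM in 6 h livers, against 13.9, 15.7 and 13.7 FPKM in sham livers. Srp68 was at 16.5, 16.8 and 17.7 FPKM at 3 h and at 21.2, 17.8 and 21.3 FPKM at 12 h. The rise at 6 h was 1.14 ± 0.13 (edgeR adjusted p 2.67e-05), and 12 h livers were lower than 6 h livers by -0.67 ± 0.13 (0.0025). Its partner did not pass the test between 12 and 6 h. Srp72 averaged 27.9 ± 3.26 FPKM at 6 h and 27.0 ± 2.41 FPKM at 12 h, against 16.6 ± 2.40 FPKM in sham livers (SD, n = 3 each), and its log2 difference between 12 and 6 h was -0.03 ± 0.14 (edgeR adjusted p 0.902). Srp9 and Srp14, the pair that halts translation, rose least at 6 h, by 0.58 ± 0.15 and 0.55 ± 0.19. The Srp14 call, with an edgeR adjusted p of 0.043, was lost in several fits. Sham replicate 1 was at 12.9 FPKM beside 23.1 and 23.0 FPKM in the other sham libraries, and without it the difference was 0.31, with an adjusted p of 0.0547. The call was also lost on leaving out any of the 6 h libraries (0.55, 0.50 and 0.59), with only the 2 groups compared (0.53) and with library totals (0.22).

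Among the 5 translocon genes, Sec61a1 and Sec61g were called higher at 6 and 12 h and the other 3 at no time in the main fit. Without sham replicate 1, Sec63 was called higher at 12 h. Sec61a1 encodes the channel itself and was at 28.8, 34.7 and 31.0 FPKM in 6 h livers, against 17, 19.4 and 15 FPKM in sham livers. It was at 18.6, 15.8 and 17.8 FPKM at 3 h and 23.7, 23.4 and 27.1 FPKM at 12 h. Its rise was 0.85 ± 0.14 at 6 h (edgeR adjusted p 0.000373) and 0.52 ± 0.14 at 12 h (0.0132), the second of which missed the threshold without sham replicate 3 (0.44, adjusted p 0.0608) or the third 12 h library (0.45, adjusted p 0.0623).

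Sec61g, the small gamma subunit that braces the channel, was at 23.3, 22.6 and 27.8 FPKM in 6 h livers, against 8.98, 13.2 and 12.0 FPKM in sham livers. At 3 h it was at 17.8, 11.8 and 17 FPKM, and at 12 h at 21.8, 26.6 and 27.7 FPKM. Its 6 and 12 h libraries overlapped each other, above all 3 h and sham libraries. The log2 difference was 1.08 ± 0.19 at 6 h (edgeR adjusted p 0.000641) and 1.14 ± 0.19 at 12 h (0.000722). The third channel subunit, Sec61b, averaged 46.7 ± 5.38 FPKM at 6 h against 34.0 ± 10.6 FPKM in sham livers (SD, n = 3 each), a log2 difference of 0.43 ± 0.23 with an edgeR adjusted p of 0.169. Its sham values of 21.9, 41.8 and 38.3 FPKM overlapped those of each other group.

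Sec62 and Sec63, partners of the channel that assist proteins entering after their synthesis, had log2 differences from sham at 6 h of -0.26 ± 0.17 and 0.02 ± 0.16. Sec62 was at 30.9, 29.6 and 34.1 FPKM in 6 h livers, against 48.3, 32.6 and 30.4 FPKM in sham livers, with sham replicate 1 the highest of the 12 libraries. With library totals as the scale Sec62 was called lower at 6 h, by -0.56.

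Of the 4 TRAP genes, whose products sit beside the channel and help some signal sequences to enter it, Ssr1, Ssr2 and Ssr3 were called higher at 6 and 12 h. Ssr3 was at 87.0, 106 and 117 FPKM at 6 h and at 109, 114 and 135 FPKM at 12 h, against 71.7, 49.3 and 42.6 FPKM in sham livers. The 3 h values of 52.2, 50.3 and 55.3 FPKM lay within the sham range. Its log2 difference from sham was 0.90 ± 0.18 at 6 h (edgeR adjusted p 0.00197) and 1.12 ± 0.19 at 12 h (0.000706), and the difference between 12 and 6 h was 0.23 ± 0.18 (0.398).

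Ssr1 was at 14.7, 19.2 and 18.7 FPKM at 6 h and 16.2, 18.3 and 20 FPKM at 12 h, against 11.5, 10.4 and 7.61 FPKM in sham livers. It was at 10.6, 8.99 and 9.12 FPKM at 3 h. Ssr2 was at 56.6, 72.4 and 48.7 FPKM at 6 h and 47.7, 54.8 and 53.9 FPKM at 12 h, against 23.5, 38.8 and 32.6 FPKM in sham livers, with 44.1, 31.9 and 40.4 FPKM at 3 h. For both genes all libraries of 6 and 12 h lay above all sham libraries. Their log2 differences at 6 h were 0.81 ± 0.17 and 0.88 ± 0.20. At 12 h Ssr2 differed by 0.71 ± 0.20 (edgeR adjusted p 0.0178), a call that was lost without 12 h replicate 2 or 3 (0.67 and 0.69). Ssr4 averaged 32.4 ± 1.02 FPKM at 6 h against 23.5 ± 6.49 FPKM in sham livers (SD, n = 3 each), with an edgeR adjusted p of 0.0754.

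The signal peptidase has a catalytic subunit, Sec11a or Sec11c, and noncatalytic subunits encoded by Spcs1, Spcs2 and Spcs3. Spcs2, Sec11c and Sec11a were called higher at 6 h, and Spcs2, Sec11c and Spcs3 at 12 h. Spcs2 was at 29.0, 39.1 and 36.5 FPKM at 6 h and 29.4, 32.6 and 34.3 FPKM at 12 h, against 20.5, 18.5 and 13.7 FPKM in sham livers. It was at 20.2, 16.6 and 19.9 FPKM at 3 h. The log2 difference was 0.96 ± 0.17 at 6 h (edgeR adjusted p 0.000635) and 0.86 ± 0.17 at 12 h (0.00214).

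Sec11c was at 9.47, 11.7 and 14.1 FPKM in 6 h livers, against 6.81, 6.17 and 7.13 FPKM in sham livers, a log2 difference of 0.78 ± 0.15 (edgeR adjusted p 0.00105). Sec11a differed by 0.40 ± 0.14 (0.0423), a call that was lost on leaving out any sham library (0.37, 0.43 and 0.39 without sham replicates 1, 2 and 3) or 6 h replicate 2 or 3 (0.37 and 0.36). The ratio of Sec11c to Sec11a did not pass the test of a difference among the groups (permutation p = 0.154, 100000 resamples). Spcs3 was at 33.9, 38.2 and 45.8 FPKM in 12 h livers, against 32.4, 22.2 and 18.1 FPKM in sham livers, so that its call at 12 h (0.69 ± 0.20, edgeR adjusted p 0.0223) rests on ranges that nearly met, and it was lost without sham replicate 2 or 3 (0.63 and 0.52) or the third 12 h library (0.57). Spcs1 had a log2 difference of 0.23 ± 0.13 at 6 h, with an edgeR adjusted p of 0.203, and 16.3% of its exonic bases are shared with Glt8d1 on the opposite strand.

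Of the 10 COPII genes, 7 were called higher at 6 h and 6 at 12 h, and 5 were lower at 12 h than at 6 h. Sec13, a cage subunit with Sec31a, was the only gene beside Sec24d called at 3 h, at 19.9, 17.6 and 18.5 FPKM against 11.8, 14.0 and 13.0 FPKM in sham livers (log2 difference 0.49 ± 0.13, edgeR adjusted p 0.0135). It was at 22.3, 26.4 and 22.5 FPKM at 6 h and 18.3, 19.9 and 20 FPKM at 12 h. Each library after resection lay above each sham library.

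Sec31a was at 23.2, 26.3 and 22.7 FPKM in 6 h livers, against 13.5, 14.7 and 12.1 FPKM in sham livers. It was at 14.6, 13.2 and 15.8 FPKM at 3 h and 17.4, 15.6 and 20.7 FPKM at 12 h. The rise at 6 h was 0.81 ± 0.14 (edgeR adjusted p 0.000616). Its call at 12 h against sham, 0.40 ± 0.14 with an edgeR adjusted p of 0.0474, was lost in 8 of 16 alternatives. These included the fits without sham replicate 2 or 3 (0.47 and 0.33) or without 12 h replicate 1 or 3 (0.42 and 0.29).

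Sec24c, another cargo-binding isoform, was at 26.9, 25.8 and 21.8 FPKM in 6 h livers, against 14.0, 14.2 and 13.2 FPKM in sham livers. Its level was 14.8, 14.5 and 15.4 FPKM at 3 h and 19.4, 16.3 and 18.6 FPKM at 12 h. The difference was 0.82 ± 0.12 at 6 h (edgeR adjusted p 0.000225). At 12 h it was 0.38 ± 0.12 (0.0346), a call that was lost in 8 of 16 alternatives. Sec24a and Sec24b, the remaining isoforms, were called at no time in the main fit. Their log2 differences at 6 h were 0.17 ± 0.19 and -0.04 ± 0.18. Sec24a was at 16.3 FPKM in sham replicate 1, beside 10.3 and 10 FPKM in the other sham libraries. Without sham replicate 1 it was called higher at 6 h (edgeR adjusted p 0.0293) and at 12 h. Of the 4 Sec24 genes, Sec24c and Sec24d thus passed the test against sham in the main fit.

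Sec23a, the second Sec23 gene, followed another course from Sec23b. It was at 26.6, 28.8 and 30.2 FPKM in 12 h livers, against 21.5, 14.0 and 12.9 FPKM in sham livers, with 16.5, 21 and 19.6 FPKM at 3 h and 23.1, 24.0 and 23.2 FPKM at 6 h. The log2 difference was 0.81 ± 0.17 at 12 h (edgeR adjusted p 0.00388). At 6 h it was 0.51 ± 0.17 (0.0344), a call that was lost without sham replicate 2 or 3 (0.42 and 0.38) or on leaving out any of the 6 h libraries (0.53, 0.50 and 0.52), while without sham replicate 1 the value was 0.77.

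Sar1 is the GTPase that starts COPII budding, and its 2 genes moved apart. Sar1a averaged 28.3 ± 3.48 FPKM at 6 h, against 17.9 ± 1.23 FPKM in sham livers (SD, n = 3 each), a log2 difference of 0.63 ± 0.13 (edgeR adjusted p 0.00173). Sar1b, the isoform known to be needed for chylomicron export in the human gut, was at 92.6, 85.0 and 72.8 FPKM in 12 h livers, against 149, 121 and 117 FPKM in sham livers. Its level was 147, 153 and 159 FPKM at 3 h and 128, 122 and 123 FPKM at 6 h. All 12 h libraries lay below all others. Its log2 difference was -0.64 ± 0.13 from sham (edgeR adjusted p 0.00342) and -0.56 ± 0.13 from 6 h (0.00869). By FPKM it was the highest of the 48 genes in sham livers. Sar1b and Sec24a lie head to head on chromosome 11 with starts 53 bases apart. In the main fit Sec24a was not called at 12 h (0.17 ± 0.19, edgeR adjusted p 0.532). Without sham replicate 1 Sec24a was called higher at 12 h, while Sar1b was called lower at 12 h in every alternative.

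The isoform ratios within a library do not depend on how libraries are scaled. Of 9 pairs, 8 differed among the 4 groups by a permutation test over the 12 libraries, adjusted over the pairs. Sec24d, Sec24a and Arfgap3 recur among the pairs, so the 8 are not separate results. The share that would pass among other pairs of genes was not computed. The ratio of Sec23b to Sec23a was 0.915, 1.17 and 1.04 in 6 h livers, against 0.303, 0.458 and 0.302 in sham livers, a log2 difference of 1.58 (permutation p adjusted 0.0123). At 3 h it was 0.441, 0.288 and 0.409 and at 12 h 0.400, 0.387 and 0.488. The 6 h libraries alone came near equal FPKM of both genes.

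Sec24d stood to Sec24a at 2.23, 2.71 and 1.99 in 6 h livers, against 0.570, 1.03 and 0.770 in sham livers (permutation p adjusted 0.00211). The Sec24d to Sec24c ratio was 1.09, 1.36 and 1.44 in 6 h livers, against 0.664, 0.745 and 0.585 in sham livers (permutation p adjusted 0.00101). At 3 h that ratio was already 1.05, 1.11 and 1.26. The ratio of Sec24b to Sec24a differed from sham by -0.21 on the log2 scale at 6 h and -0.48 at 3 h (permutation p adjusted 0.0172).

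Sar1b exceeded Sar1a by 5.18, 3.83 and 4.36 times in 6 h livers and 4.15, 3.87 and 3.13 times in 12 h livers, against 8.95, 6.65 and 6.17 times in sham livers. The log2 difference from sham was -0.70 at 6 h and -0.96 at 12 h (permutation p adjusted 0.00367). Exact permutation tests of 3 against 3 libraries cannot go below p = 0.1.

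**Figure D3:**
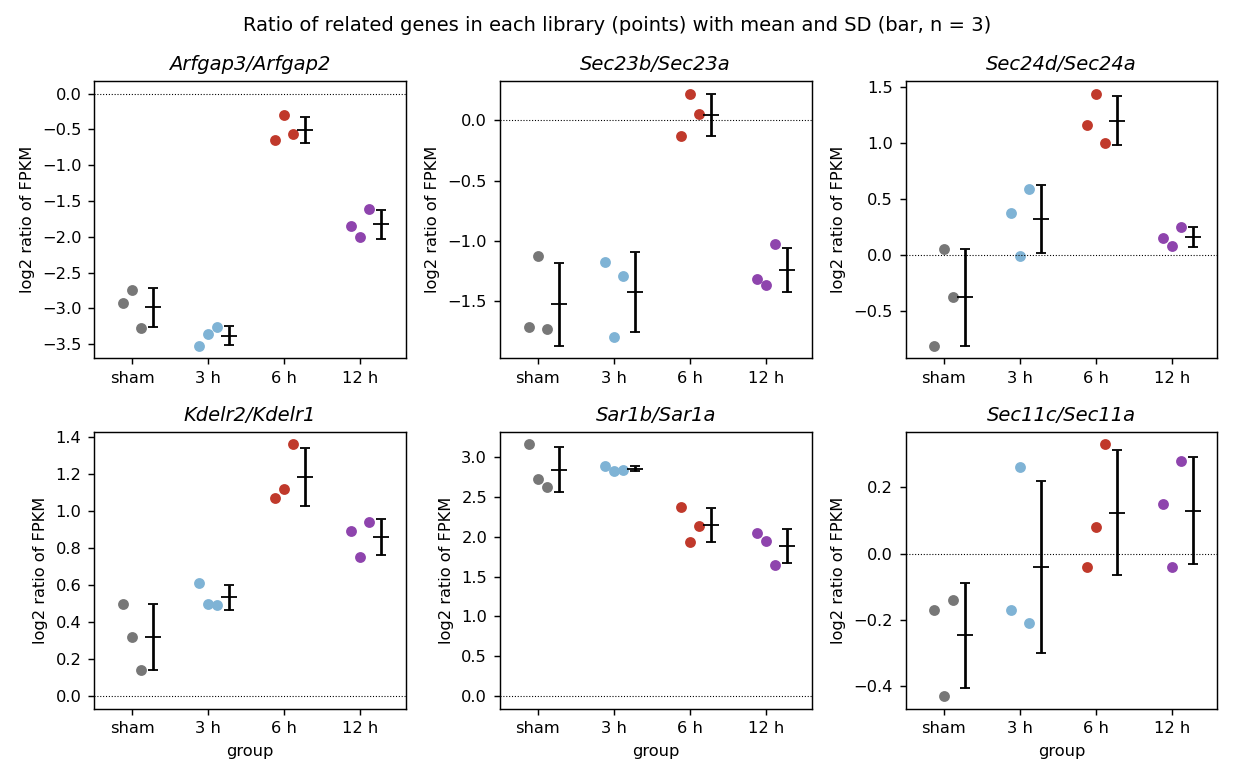
Log2 ratio of FPKM (y axes) of 6 pairs of related genes in sham, 3 h, 6 h and 12 h livers (x axes), with a point per library, a bar for the mean ± SD of 3 libraries and a dotted line at equal FPKM. Arfgap3/Arfgap2, Sec23b/Sec23a, Sec24d/Sec24a and Kdelr2/Kdelr1 are highest at 6 h and Sar1b/Sar1a falls below sham at 6 and 12 h, while Sec11c/Sec11a did not pass the test.

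Cargo receptors bridge soluble cargo and the coats. Tmed9, Tmed2 and Mcfd2 were called higher at 6 h, and Tmed2, Mcfd2 and Lman1 at 12 h. Tmed9, a p24 family member, was at 30.2, 33.3 and 26.5 FPKM in 6 h livers, against 8.04, 16.4 and 13.1 FPKM in sham livers. It was at 18.5, 13.4 and 15.9 FPKM at 3 h and 16.2, 22.1 and 18.5 FPKM at 12 h, where it overlapped sham. The log2 difference at 6 h was 1.23 ± 0.23, with an edgeR adjusted p of 0.000969.

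Tmed2, another p24 protein, was at 67.2, 79.6 and 75.4 FPKM at 6 h and 80.2, 80.5 and 85.3 FPKM at 12 h, against 50.2, 50.4 and 44.9 FPKM in sham livers. Its 3 h values of 52.3, 53.6 and 59.2 FPKM lay between. The log2 difference was 0.58 ± 0.12 at 6 h (edgeR adjusted p 0.00192) and 0.75 ± 0.12 at 12 h (0.000568). Its p24 partner Tmed10 differed by 0.25 ± 0.13 at 6 h (0.137) and 0.29 ± 0.13 at 12 h (0.0948), and the pseudogene Tmed10-ps, with 903 counts beside 21787 for Tmed10, could share its reads.

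Lman1 and Mcfd2 together form the receptor that exports coagulation factors V and VIII. Mcfd2 was at 89.4, 87.9 and 92.3 FPKM at 6 h and 92.7, 99.2 and 106 FPKM at 12 h, against 60.9, 62.0 and 60.5 FPKM in sham livers. At 3 h its 77.6, 71.2 and 72.8 FPKM lay between, without a call (0.23 ± 0.11, edgeR adjusted p 0.167). Lman1 was at 48.2, 47.8 and 54.3 FPKM in 12 h livers, against 40.3, 36.0 and 29.0 FPKM in sham livers (0.50 ± 0.14, edgeR adjusted p 0.0142). Its call did not hold without sham replicate 3 (0.39), without the third 12 h library (0.45) and with only the 2 groups compared (0.51). At 6 h Lman1 differed by 0.35 ± 0.14 (0.0643), and by 0.45 without sham replicate 1 (adjusted p 0.0109).

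The COPI coat is recruited as a complex of 7 subunits, and the genes for 6 of them were called higher at 6 h, all but Copz1. At 12 h Copb2, Arcn1 and Copg1 were called higher. Copg1, the gamma subunit, was at 9.87, 12.4 and 10.9 FPKM at 6 h and 9.33, 8.79 and 10.4 FPKM at 12 h, against 5.89, 6.29 and 4.90 FPKM in sham livers. It was at 7.07, 6.37 and 6.02 FPKM at 3 h. The log2 difference was 0.93 ± 0.14 at 6 h (edgeR adjusted p 0.000248) and 0.73 ± 0.14 at 12 h (0.00225).

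Arcn1, which encodes the delta subunit, was at 17.3, 22.3 and 21.4 FPKM at 6 h and 17.1, 17.6 and 20.6 FPKM at 12 h, against 13.5, 10.2 and 8.63 FPKM in sham livers. The 3 h values of 10.7, 11.1 and 10.8 FPKM lay within the sham range. Its rise was 0.89 ± 0.17 at 6 h (edgeR adjusted p 0.000998). The beta subunits rose by 0.74 ± 0.17 (Copb1) and 0.65 ± 0.14 (Copb2) at 6 h and the alpha subunit, Copa, by 0.50 ± 0.13.

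Cope, the epsilon subunit, was at 30.8, 32.1 and 29.1 FPKM in 6 h livers, against 11.8, 23.3 and 23.7 FPKM in sham livers. Sham replicate 1 is again the low library. The Cope difference of 0.62 ± 0.21 (edgeR adjusted p 0.0339) was 0.35 without that library, and the call was lost on leaving out any of the 6 h libraries (0.62, 0.58 and 0.65). Copz1 was at 38.9, 44.6 and 39.9 FPKM in 6 h livers, against 33.2, 36.8 and 33.1 FPKM in sham livers, a difference of 0.23 ± 0.12 with an edgeR adjusted p of 0.150.

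The 3 ArfGAPs, which end the GTP cycle of Arf1 on the coat, differed from each other. Beside Arfgap3, Arfgap1 was at 8.14, 9.13 and 8.04 FPKM in 6 h livers, against 3.68, 5.07 and 4.47 FPKM in sham livers. It was at 4.62, 4.96 and 4.36 FPKM at 3 h and 4.48, 4.67 and 4.20 FPKM at 12 h, both within the sham range. The rise at 6 h was 0.91 ± 0.14 (edgeR adjusted p 0.00025), and 12 h livers were lower than 6 h livers by -0.90 ± 0.14 (0.000522).

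Arfgap2 was at 13.6, 13.8 and 13.1 FPKM in 6 h livers, against 11.9, 11.9 and 12.1 FPKM in sham livers, a log2 difference of 0.15 ± 0.12 with an edgeR adjusted p of 0.363. Its exons share 33.4% of their bases with 1110051M20Rik on the opposite strand, a gene with 351 counts in all beside 10286 for Arfgap2. The Arfgap3 to Arfgap2 ratio was 0.639, 0.811 and 0.678 in 6 h livers, against 0.132, 0.150 and 0.103 in sham livers (log2 difference 2.48, permutation p adjusted 0.000675). That ratio was 0.0872, 0.0971 and 0.104 at 3 h and 0.277, 0.248 and 0.326 at 12 h. By FPKM Arfgap3 was thus the lowest of the ArfGAPs in every sham and 3 h library and exceeded Arfgap1 in every 6 h library, by 1.07, 1.23 and 1.10 times.

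KDEL receptors recognise escaped ER chaperones in the Golgi and return them in COPI vesicles. Kdelr2 was at 76.5, 106 and 86.9 FPKM in 6 h livers, against 42.7, 44.3 and 37.8 FPKM in sham livers. It was at 51.7, 44.1 and 50.5 FPKM at 3 h and 58.2, 60.9 and 69.3 FPKM at 12 h. The log2 difference was 1.08 ± 0.15 at 6 h (edgeR adjusted p 8.69e-05) and 0.58 ± 0.15 at 12 h (0.00927).

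Kdelr1 was at 36.5, 48.7 and 33.9 FPKM in 6 h livers, against 30.3, 35.4 and 34.2 FPKM in sham livers, a difference of 0.23 ± 0.15 with an edgeR adjusted p of 0.266. The Kdelr2 to Kdelr1 ratio was 2.09, 2.17 and 2.56 in 6 h livers, against 1.41, 1.25 and 1.10 in sham livers (permutation p adjusted 0.000675). Kdelr3 was at 0.348, 0.368 and 0.157 FPKM in 6 h livers, against 0.334, 0.191 and 0.221 FPKM in sham livers, with 0, 0.0934 and 0.0493 FPKM at 3 h and 0.230, 0.155 and 0.159 FPKM at 12 h.

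By time course, 25 genes were called higher than sham at both 6 and 12 h. Of these, 16 did not differ by the test between 12 and 6 h, among them Sec61a1, Sec61g, the 3 TRAP genes called, Spcs2, Sec11c, Copb2, Copg1, Arcn1, Tmed2 and Mcfd2. Of the genes called higher at 6 h than in sham livers, 10 were called lower at 12 h than at 6 h, namely Srp19, Srp68, Srprb, Sec23b, Sec24c, Sec24d, Sec31a, Arfgap1, Arfgap3 and Kdelr2. Of these, Sec23b, Sec24d, Arfgap1 and Arfgap3 kept the call between 12 and 6 h in all 16 alternatives run. Srp68 and Srprb lost it only with library totals (-0.38 and -0.49, edgeR adjusted p 0.0547 and 0.06). The other 4 lost it with library totals, with quantile-normalized values and on leaving out single libraries. Sec24c also lost it with no filter, and Srp19 without sham replicate 1 and 6 h replicate 3 together. Sec31a lost it in 11 of 16 alternatives, among them median-ratio size factors, no filter, a replicate block and only the 2 groups compared. Srp19 lost it without any one of the 12 h libraries or without 6 h replicate 2 or 3 (-0.46 to -0.64 in these 5 fits), and Sec31a without any one of the 6 h libraries or without 12 h replicate 1 or 2 (-0.32 to -0.45). For Sec24c it was lost without 6 h replicate 1 or 2 or 12 h replicate 2 or 3 (-0.37 to -0.45), and for Kdelr2 without 6 h replicate 2 or 12 h replicate 1 or 2 (-0.36 to -0.48). Cope and Tmed9 came close to the threshold, at -0.60 and -0.65 between 12 and 6 h (edgeR adjusted p 0.0523 and 0.0513), and DESeq2 called both lower. The highest mean FPKM fell at 6 h for 32 genes, at 12 h for 12, at 3 h for 1 (Sar1b) and in sham for 2 (Sec62 and Sec24b). In the main fit 11 genes were called against sham at no time, though some of them were called in alternatives, such as Sec24a without sham replicate 1.

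Of the wider pathway at 6 h, tethers and SNAREs of ER and Golgi traffic had 11 of 18 genes called higher and none lower, with Stx18 at a log2 difference of 1.74 and Sec22b at 1.35. ER chaperones and folding enzymes had 10 of 17 higher and none lower, with Creld2 at 2.59, Manf at 2.14 and Dnajb9 at 1.95. Neither list had a gene lower by edgeR, and both counts stand against the same background of 16.8% higher. Other genes of protein translocation had 3 of 6 higher (Srp54c 0.94, Srpr 0.84 and Tram2 0.77), and the oligosaccharyltransferase, which adds sugar chains at the channel, had 3 of 11 (Ostc 0.85).

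Genes outside the 48 but in the same coats were mixed. Other COPII genes had 3 of 8 higher and 1 lower, with Preb, the exchange factor for Sar1, at 1.32 and Sec31b at -1.58. Other COPI genes had 3 of 7 higher and 2 lower, with Arf4 at 1.19 and Copg2 at -0.62. Other cargo receptors had 5 of 15 higher and 2 lower, from Tmed3 at 1.88 to Tmed1 at -1.03. The membrane insertion complexes EMC and GET had 1 of 14 higher and 1 lower, below the background in each direction.

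ER stress sensors and transcription factors had 5 of 9 higher and 1 lower at 6 h, with Creb3l2 at 1.55, Eif2ak3 at 1.04 and Ern1 lower at -0.76. Ern1 was also called lower at 3 h, at -0.83. Xbp1, whose spliced product activates ER and secretory genes, was at 224, 227 and 224 FPKM in 6 h livers, against 59.6, 76.1 and 68.0 FPKM in sham livers. It had reached 169, 174 and 178 FPKM at 3 h, and was at 84.5, 89.9 and 91.7 FPKM at 12 h. Its log2 difference was 1.32 at 3 h (edgeR adjusted p 1.08e-05) and 1.70 at 6 h (7.14e-07). A link between Xbp1 and the levels of the transport genes was not tested. Spliced and unspliced Xbp1 are not separated in gene counts. Of 14 secreted cargo genes, 6 were called higher and none lower at 3 h, against 9.81% and 11.7% of all tested genes, and 6 higher and 1 lower at 6 h, against 16.8% and 18.2%, with Saa2 at a log2 difference of 8.51 at 3 h and 9.55 at 6 h.

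**Figure D4:**
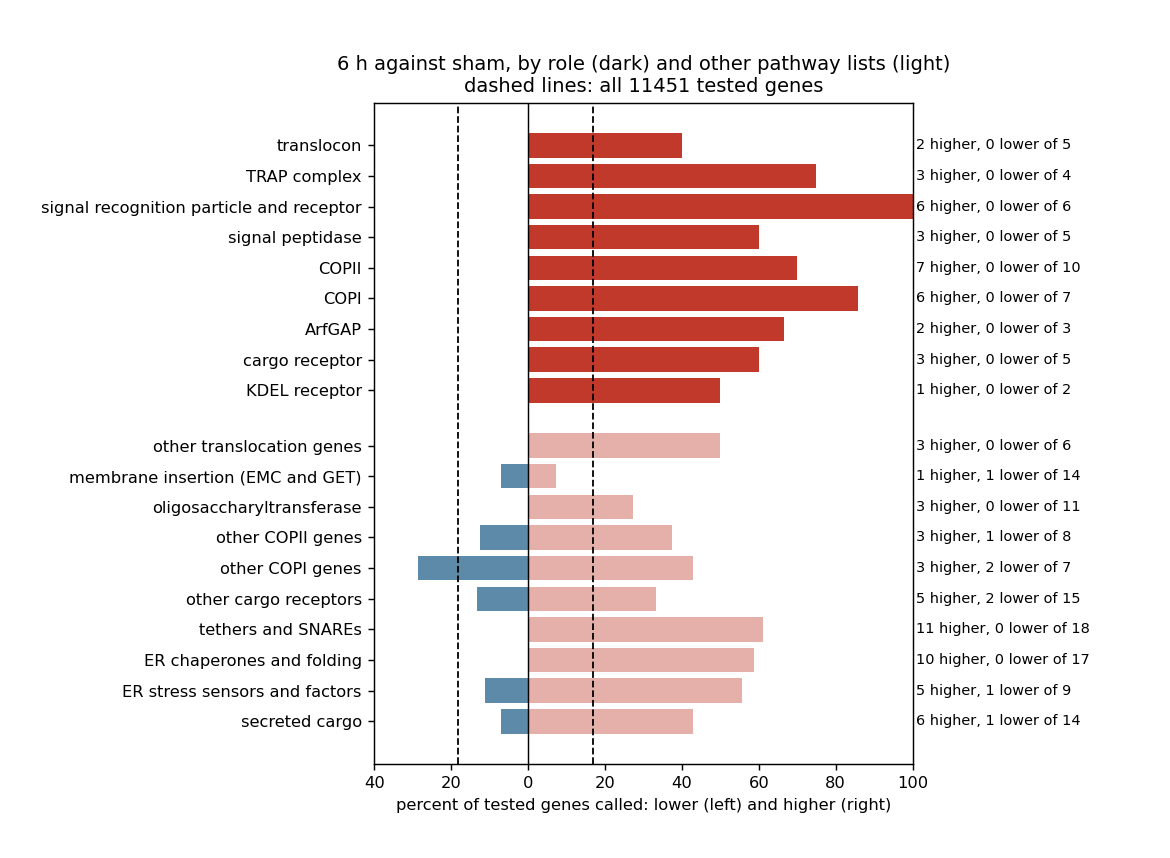
Percent of tested genes called higher (right of 0) and lower (left of 0) at 6 h against sham, for the 9 roles of the 48 genes (dark) and 10 other lists (light), with the counts at the right and dashed lines at 16.8% and 18.2% for all tested genes. Every role lies right of the dashed line for higher calls with none lower, and the membrane insertion list lies inside both lines.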

How the data were processed

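The submitters' processing notes name the build GRCm38 (mm10) and, in no stated order, featureCounts 1.5.0-p3, HISAT2 2.0.5, fastp, DESeq2 1.20.0 and CASAVA 1.8. The role of each tool, and the strand used in counting, are not given in the sources used here. Per the labels, TRIzol was used for extraction and a NEBNext Ultra kit for the libraries. The deposited table holds whole-number counts without normalization, and the authors' FPKM, which could be rebuilt from the counts, the gene lengths and median-ratio size factors with a relative deviation of 6.63e-06%.

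Counts were fitted with edgeR 4.0.16 (quasi-likelihood, TMM scaling) in R 4.3.3, in a model of 4 groups over 12 libraries. Tested genes reached 1 FPKM in at least 3 libraries (11451 genes), and p-values were adjusted by Benjamini-Hochberg over all of them. Calls were made under an adjusted p of 0.05. The biological coefficient of variation was 20.6%, and totals of 15573405 to 17199639 counts per library set the precision. Ratios of related genes were compared with a permutation test of the F statistic (100000 resamples) in Python 3.11.15 with numpy 2.4.6 and pandas 2.3.3. Alternatives used DESeq2 1.42.0 and limma 3.58.1 on log2(FPKM + 1), log2(FPKM + 0.1) and quantile-normalized values. They also included median-ratio size factors, library totals, no filter, only the 2 groups compared, a replicate block and libraries left out. The test was checked on simulated counts.

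The 48 genes, the other lists and the markers were chosen with earlier results of these data known. Every library value is given for genes called against sham with a log2 difference of 0.8 or more either way, and for at least 1 gene per role. Other pathway genes are named as the largest differences among those called, up to 4 per list. Promoters came from a RefSeq table on GRCm38.p6, which held 38 of the 48 genes. One promoter sequence is not reported here. Of the 48, 45 have the same start and end in GENCODE M21, and 16 share exonic bases with another gene. No columns were left unused.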

Additional observations from a re-analysis of the deposited data

How the results depend on the processing

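Directions of called genes did not reverse under any alternative run. Of genes called at 6 h against sham, 23 of 33 were called in every alternative, as were 19 of 28 at 12 h, 18 of 25 for 6 h against 3 h, 4 of 11 for 12 h against 6 h and 1 of 2 at 3 h.

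Scaling by library totals shifted the median of all tested genes by -0.18 (log2) at 3 h, -0.31 at 6 h and -0.01 at 12 h against sham, by -0.13 for 6 h against 3 h and by 0.30 for 12 h against 6 h. The counts became 1 higher and 3 lower at 3 h, 23 higher and 2 lower (Sec62 and Sar1b) at 6 h, 27 and 1 at 12 h, and 9 higher and 4 lower for 12 h against 6 h. Over all tested genes they were 782 and 2346, 1048 and 3706, 1561 and 1713, and 3122 and 561. Quantile normalization gave 2 higher and 6 lower for 12 h against 6 h, against 1375 and 1220 of all tested genes. With only the 2 groups compared, 1 gene was higher at 3 h and 1 was higher at 12 h than at 6 h. Over all tested genes 764 and 1943 were higher there. Without sham replicate 1 and 6 h replicate 3 together, 4 were higher at 3 h, and 1 was higher and 15 lower at 12 h than at 6 h. Over all tested genes those counts were 1367, 1931 and 2178. The cause was not tested.

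With each library left out in turn, the genes called higher numbered 2 to 3 at 3 h and 29 to 34 at 6 h. At 12 h they numbered 18 to 31, and for 6 h against 3 h 18 to 25. Over all tested genes these ranges were 826 to 1274, 1585 to 2437, 981 to 2597 and 191 to 386. Of the transport genes, those called lower at 3 h numbered 0 to 1 (Arfgap3, without sham replicate 3), and those lower at 12 h than at 6 h 7 to 9. Over all tested genes these ranges were 884 to 1398 and 906 to 1148. The F-test gave 33 to 37 transport genes, and 8 of 9 ratios passed each time.

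Deviations of same-numbered libraries correlated between -0.268 and 0.168 over 18 pairs, and those of differently numbered libraries between -0.296 and 0.343. No deviation shared by replicate number was seen, which cannot show whether libraries were handled in pairs. A replicate block gave 2 higher at 3 h, 31 at 6 h, 25 higher and 1 lower at 12 h, 22 higher for 6 h against 3 h and 10 lower for 12 h against 6 h. Over all tested genes the same counts, in that order, were 1013, 1799, 1400, 1574, 377 and 1254. Depth limits genes near 1 FPKM, and Arfgap3 at 3 h rests on 55 to 69 counts per library.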
